A study of Mus musculus with 28 samples.

Results

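The collagen-modifying enzymes and the collagen chaperone were followed as 10 genes, chosen by symbol among the 54109 genes of the reprogramming table and the 54838 genes of the table of induced pluripotent stem cells (iPSC). They were the prolyl 4-hydroxylase genes P4ha1, P4ha2, P4ha3 and P4hb, the lysyl hydroxylase genes Plod1, Plod2 and Plod3, the collagen galactosyltransferase genes Colgalt1 and Colgalt2, and Serpinh1, which encodes the chaperone HSP47. All 10 were found in both tables, and all 10 passed the filter on low values in both. The study measured total RNA of mouse embryonic fibroblasts under reprogramming in 4 groups of 3 libraries. Every group received doxycycline at 1 µg/ml. The DOX group received nothing else, DOX UNC received UNC0638 at 1 µM, and DOX 3C received the mix called 3C, made of 3 µM CHIR99021, 250 nM TGF-b RI Kinase Inhibitor II and 50 µg/ml L-ascorbic acid. DOX 3C UNC received both UNC0638 and 3C. A further 6 libraries came from iPSC, 3 labelled DMSO and 3 labelled with UNC0638 at 1 µM for the first 48 hours.

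The embryonic fibroblasts of all groups were heterozygous for Rosa26-rtTA, a ubiquitously expressed doxycycline-responsive activator, and for an Oct4-GFP reporter. They carried either a heterozygous DOX-inducible OKSM allele or a homozygous inducible OKS allele of the reprogramming factors, and which library carried which allele was not given. Cells were seeded on irradiated feeder cells, commonly fibroblasts, so reads of collagen genes from feeders and from reprogramming cells could not be told apart. For the 12 reprogramming libraries no label gives the day of RNA collection. For the iPSC libraries the protocol places the harvest at 48 hours of reprogramming, whereas the other labels call the cells iPSC. No label says that replicates were separate cultures, so p-values measure only the spread between these libraries.

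Newly made procollagen chains are modified in the endoplasmic reticulum before they fold. Prolyl 4-hydroxylase, a tetramer of catalytic alpha subunits (P4ha1, P4ha2 or P4ha3) and beta subunits (P4hb, which is protein disulfide isomerase), makes the 4-hydroxyproline that stabilises the triple helix. Lysyl hydroxylases make hydroxylysine, to which galactosyltransferases add sugar, and HSP47 binds the folded helix and escorts it out of the reticulum. The prolyl and lysyl hydroxylases need iron, 2-oxoglutarate and ascorbate, so 3C supplies a cofactor of these enzymes. It also holds an inhibitor of TGF-beta signalling, a pathway known to induce collagen genes in fibroblasts, and CHIR99021, an inhibitor of GSK3. These compounds were only given together, so their separate effects could not be told apart, and the part of each was not tested. UNC0638 (UNC below) inhibits the methyltransferases that place the repressive mark H3K9me2.

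The 10 genes lie on 8 mouse chromosomes, and mm10 positions of the genes that moved most are P4ha1 at chr10:59323197-59373304, P4ha2 at chr11:54100924-54131668, Plod2 at chr9:92539636-92608428, Plod3 at chr5:136987019-136996646 and Colgalt2 at chr1:152399805-152510695. Serpinh1 lies at chr7:99345375-99353239, P4hb at chr11:120560298-120573253, P4ha3 at chr7:100285489-100319701, Plod1 at chr4:147909753-147936776 and Colgalt1 at chr8:71610042-71624911. Plod3 shares 941 bases with Znhit1, which had a mean of 349.9 normalised counts, Colgalt1 shares 787 bases with Unc13a (mean 46.46), and Plod2 shares 3234 bases with the non-coding gene B430319G15Rik. Whether reads were counted by strand was not given in the sources used here, so reads in these overlaps are of uncertain origin.

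Promoter windows from RefSeq (build GRCm38.p6, gene strand, 250 bases before the start) were matched for 8 of the 10 genes and searched on both strands. Both windows of Colgalt1 lie inside the gene positions given above, and those of P4ha1 and P4ha3 overlap them, since the starts differ. The windows of 3 genes are shown because P4ha2 fell while Plod3 and P4hb rose when 3C was given without UNC. Capitals mark ACGTG, a form of the core of the hypoxia response element, or CACGT, the same letters on the other strand. Other forms of that core were not searched, so the marks do not cover the element as a whole. The windows are P4ha2 at chr11:54100674-54100923 on the plus strand, Plod3 at chr5:136986769-136987018 on the plus strand and P4hb at chr11:120573254-120573503 on the minus strand.
P4ha2: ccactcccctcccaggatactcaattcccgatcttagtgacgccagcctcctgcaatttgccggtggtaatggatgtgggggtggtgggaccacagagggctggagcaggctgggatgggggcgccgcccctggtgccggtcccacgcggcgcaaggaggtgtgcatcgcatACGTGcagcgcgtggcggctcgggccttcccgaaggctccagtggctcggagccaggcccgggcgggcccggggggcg
Plod3: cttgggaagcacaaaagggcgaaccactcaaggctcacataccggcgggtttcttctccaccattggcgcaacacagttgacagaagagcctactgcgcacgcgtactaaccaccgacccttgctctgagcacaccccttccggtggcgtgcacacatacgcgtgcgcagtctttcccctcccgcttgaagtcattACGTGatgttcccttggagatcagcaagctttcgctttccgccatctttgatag
P4hb: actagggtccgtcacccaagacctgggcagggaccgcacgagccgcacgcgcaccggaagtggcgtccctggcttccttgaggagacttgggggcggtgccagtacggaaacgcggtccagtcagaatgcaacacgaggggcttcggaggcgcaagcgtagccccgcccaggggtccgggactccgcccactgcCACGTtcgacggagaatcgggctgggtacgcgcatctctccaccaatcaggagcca
The match lies 78 bases before the start of P4ha2, 54 bases before that of Plod3 and 56 bases before that of P4hb. ACGTG was also found 16 bases before the start used for P4ha1 and 171 bases before that of Serpinh1, and not in the windows of Plod1, P4ha3 or Colgalt1. Among 32851 windows of the same length, 16.6% held it. Genes with these letters therefore moved in both directions with 3C, and the letters describe the windows only. GAANNTTC, a paired core of the heat shock element, was found in 1 window, of Colgalt1, against 6.69% of windows. CCAAT, found in 33.8% of windows, was present for Plod3 and P4hb. CCACG, found in 28.3%, was present for P4ha1, P4ha2, P4hb, Serpinh1 and 1 of the 2 windows of Colgalt1, and in P4hb and Serpinh1 it overlapped the ACGTG match. The longer CACGTG, which contains ACGTG and was held by 6.02% of windows, was in none of these windows.

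Depth, counted as reads in genes divided by 1000000, was 10.62 to 20.21 in the reprogramming libraries and 21.59 to 25.41 in the iPSC libraries. The 8 fibroblast markers were all detected: their summed level was 116239 to 129661 normalised counts in DOX, 143594 to 154349 in DOX UNC, 42306 to 50536 in DOX 3C and 75070 to 78841 in DOX 3C UNC. Col1a1, Col1a2 and Col3a1 are among them, with DOX means of 21397, 82491 and 12745, and are also counted below as fibrillar chains. The sum therefore mainly follows collagen reads and is no separate check of identity. The 6 pluripotency markers summed to 3.86 to 10.5 normalised counts in the 12 reprogramming libraries, with Dppa5a at 0 in all 4 groups, and to 3438 to 3944 CPM (reads per 1000000 reads in genes) in iPSC. Red blood cell markers summed to 1984 in DOX 3C replicate 1 and to between 110 and 242 in the other reprogramming libraries; without that library the numbers of the 10 genes that passed the test were the same in all 5 reprogramming comparisons. In these bulk samples, fewer cells of a type and less RNA per cell cannot be told apart. The fibroblast markers moved with the conditions, 0 of 8 rising and 5 falling with 3C alone, 3 rising and 4 falling with 3C in UNC, and 7 rising with UNC in 3C. Among all genes tested, 24.7% rose and 24.7% fell with 3C alone, and 23.9% rose and 23.5% fell with 3C in UNC. With UNC in 3C, 7.71% rose and 3.94% fell. The 5 endothelial markers summed to 2480 to 2956 normalised counts without 3C and to 1309 to 1823 with 3C, with Cldn5 at 0 in every group but DOX 3C. The 6 epithelial markers summed to 1417 to 1672 in DOX, 1678 to 2312 in DOX UNC, 918 to 1203 in DOX 3C and 1121 to 1459 in DOX 3C UNC, so that DOX and DOX UNC did not overlap. Taken singly, 3 of these 6 rose and 2 fell with 3C alone (median log2 fold change 0.93). With 3C in UNC, 3 rose and 2 fell (median 0.58), so the lower sums with 3C do not describe most of these markers. The 8 macrophage markers summed to 95.6 to 438 over all 12 libraries. The part of these cell type markers in the results below was not tested.

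With 3C and no UNC, 6 of the 10 genes fell and 2 rose. P4ha1, P4ha2, P4ha3, Plod1, Plod2 and Colgalt2 fell, P4hb and Plod3 rose, and Colgalt1 and Serpinh1 did not pass the test. Calls were made with limma at an adjusted p below 0.05 over all 16138 genes tested, of which 24.7% fell and 24.7% rose. The median log2 fold change of the 10 genes was -0.50, against 0.02 for all genes tested. With 3C in the presence of UNC, 4 genes fell (P4ha1, P4ha2, Plod2 and Colgalt2) and 1 rose (Plod3), against 23.5% falling and 23.9% rising among all genes. There the median of the 10 was -0.13, against 0.01 for all genes. Both comparisons use the same scale, and each is reported per gene below.

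UNC without 3C changed 1 of the 10 genes, Colgalt2, which fell, against 0.0991% of all genes falling and 0.508% rising. With the replicate block it called 4 of the 10, adding P4ha2, P4hb and Serpinh1, and 409 genes in place of 98. Without the block, 7 of the 10 had an unadjusted p below 0.05 with limma. Beside Colgalt2 these were P4ha1, P4ha2, P4hb, Plod3, Colgalt1 and Serpinh1, all with positive log2 fold changes. With 3C present, UNC raised 4 of the 10 (P4ha2, P4ha3, Plod1 and Serpinh1) and lowered 2 (Plod2 and Colgalt2), against 7.71% rising and 3.94% falling among all genes. There 8 of the 10 had an unadjusted p below 0.05 with limma, which adds P4hb and Plod3, both with positive log2 fold changes. The block moved the count over all genes from 1880 to 2871 here, and from 10 to 413 for the interaction described next, in which it called 0 of the 10. The median log2 fold change of the 10 was 0.13 in both UNC comparisons, against 0.00 for all genes. The test of the difference between the UNC effects with and without 3C (interaction) called 0 of the 10 with limma, against 0.062% of all genes. DESeq2 and edgeR on the recovered reads also called 0, and 3 of the 10 had an unadjusted p below 0.05 with limma. A UNC effect that passed the test with 3C and not without it was therefore not shown to differ between the media. DOX serves as control in the comparisons of 3C without UNC and UNC without 3C, and DOX 3C and DOX UNC are likewise shared, so the comparisons are not independent.

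**Figure D1:**
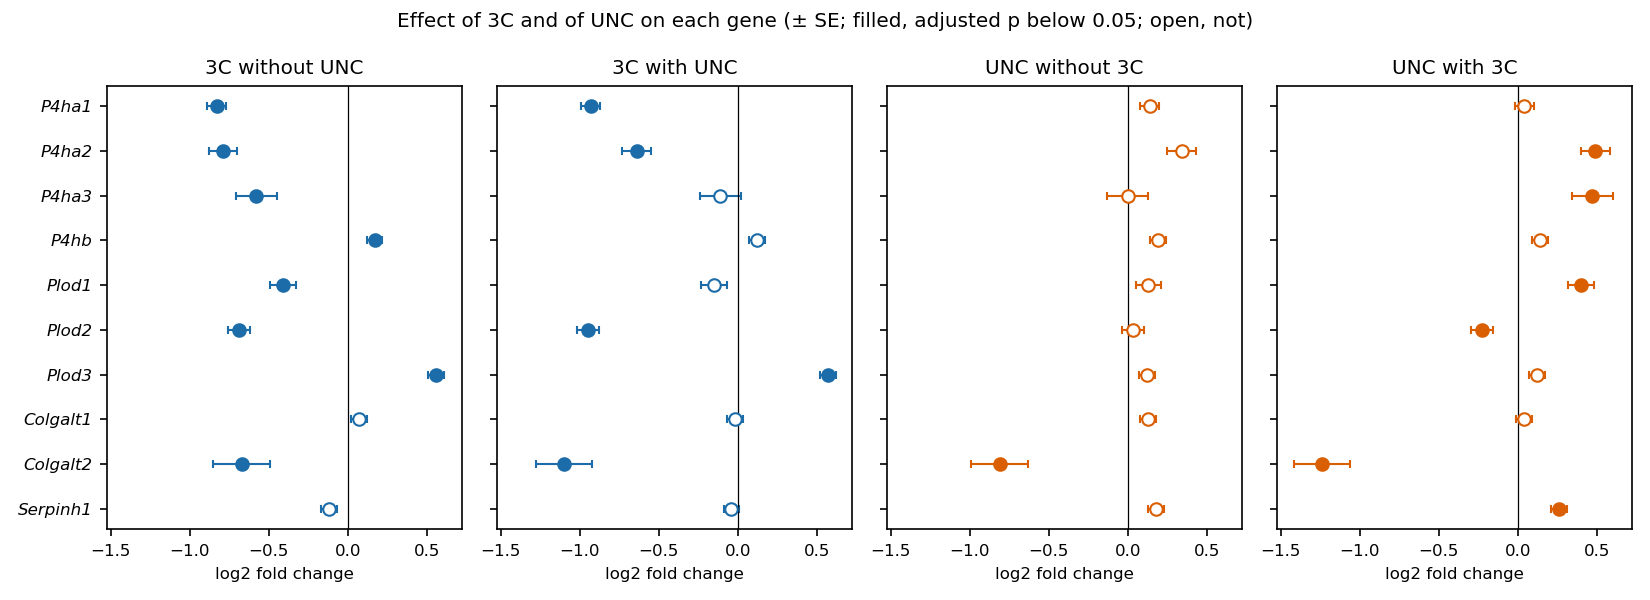
Log2 fold change (log2 of the normalised count plus 1, with its standard error) of each gene, in the order of the enzymes' steps, for 3C without and with UNC (blue) and for UNC without and with 3C (orange); filled points passed an adjusted p of 0.05. P4ha1, P4ha2, Plod2 and Colgalt2 lie left of 0 and Plod3 right of 0 as filled points in both 3C panels, and Colgalt2 is the only filled point for UNC without 3C.

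The catalytic subunit gene P4ha1 separated the libraries by 3C alone. It had 2390, 2467 and 2318 normalised counts (deposited read counts divided by 1 factor per library) in the 3 DOX libraries and 2361, 2776 and 2783 in DOX UNC. It had 1378, 1289 and 1364 in DOX 3C and 1300, 1426 and 1408 in DOX 3C UNC. All 6 libraries with 3C were below all 6 without it, and the UNC groups overlapped their controls. With 3C it fell by 0.83 on the log2 scale without UNC (SE 0.06, adjusted p = 6.82e-09) and by 0.93 with UNC (SE 0.06, adjusted p = 1.61e-09). Its UNC log2 fold changes were 0.14 (adjusted p = 0.518) without 3C and 0.04 (adjusted p = 0.777) with 3C.

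P4ha2, the second catalytic subunit gene, was lower with 3C and higher with UNC in each medium. Its normalised counts were 454.9, 559.6 and 521.3 in DOX and 678.1, 611.6 and 649.7 in DOX UNC. In DOX 3C they were 282.3, 296.2 and 304.2, and in DOX 3C UNC 410.0, 375.8 and 457.5. No pair of groups compared overlapped. It fell with 3C by 0.79 on the log2 scale without UNC (SE 0.09, adjusted p = 7.13e-07) and by 0.64 with UNC (SE 0.09, adjusted p = 8.81e-06). With UNC in 3C it rose (0.49 ± 0.09, adjusted p = 0.00147), while without 3C its UNC log2 fold change of 0.34 ± 0.09 did not pass the test (adjusted p = 0.101, and 0.0272 with the replicate block).

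P4ha3, a catalytic subunit gene with a narrower tissue range, had 442.6, 425.1 and 398.3 normalised counts in DOX, and DOX UNC spread more widely at 482.5, 343.1 and 450.7. DOX 3C was lowest at 303.7, 270.3 and 273.3, and DOX 3C UNC held 485.8, 332.1 and 369.1. The DOX UNC and DOX 3C UNC groups overlapped DOX, and DOX 3C lay below all the others. It fell with 3C alone (-0.58 ± 0.13, adjusted p = 0.00114) and had a log2 fold change of -0.11 with 3C in the presence of UNC (adjusted p = 0.524). UNC raised it in 3C (0.47 ± 0.13, adjusted p = 0.0247), a call lost without DOX 3C replicate 2 (adjusted p = 0.0901), DOX 3C replicate 3 (0.0717) or DOX 3C UNC replicate 1 (0.127), the last of which held the value of 485.8. Its interaction was 0.47 ± 0.18 (unadjusted p = 0.0194, adjusted p = 0.332).

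P4hb encodes the beta subunit, which also works as a general disulfide isomerase. Its levels were 15393, 15517 and 15066 normalised counts in DOX, 17043, 17475 and 18064 in DOX UNC, 17847, 16854 and 17005 in DOX 3C, and 18276, 19452 and 19391 in DOX 3C UNC. DOX lay below the 3 other groups and DOX 3C UNC above them, within a 1.24-fold span of group means. It rose with 3C alone (0.17 ± 0.05, adjusted p = 0.00812), the direction opposite to that of the 3 alpha subunit genes. Its log2 fold change was 0.12 with 3C in the presence of UNC (adjusted p = 0.0545, and 0.0383 with the replicate block), 0.14 with UNC in 3C (adjusted p = 0.0668, and 0.0373 with the replicate block) and 0.19 with UNC without 3C (adjusted p = 0.0905, and 0.027 with the replicate block). P4hb was also called for UNC without 3C by DESeq2 (0.00104) and with TMM scaling (0.0438), and by edgeR and DESeq2 for 3C in UNC (0.0448 and 0.0199) and for UNC in 3C (0.0376 and 0.00408).

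**Figure D2:**
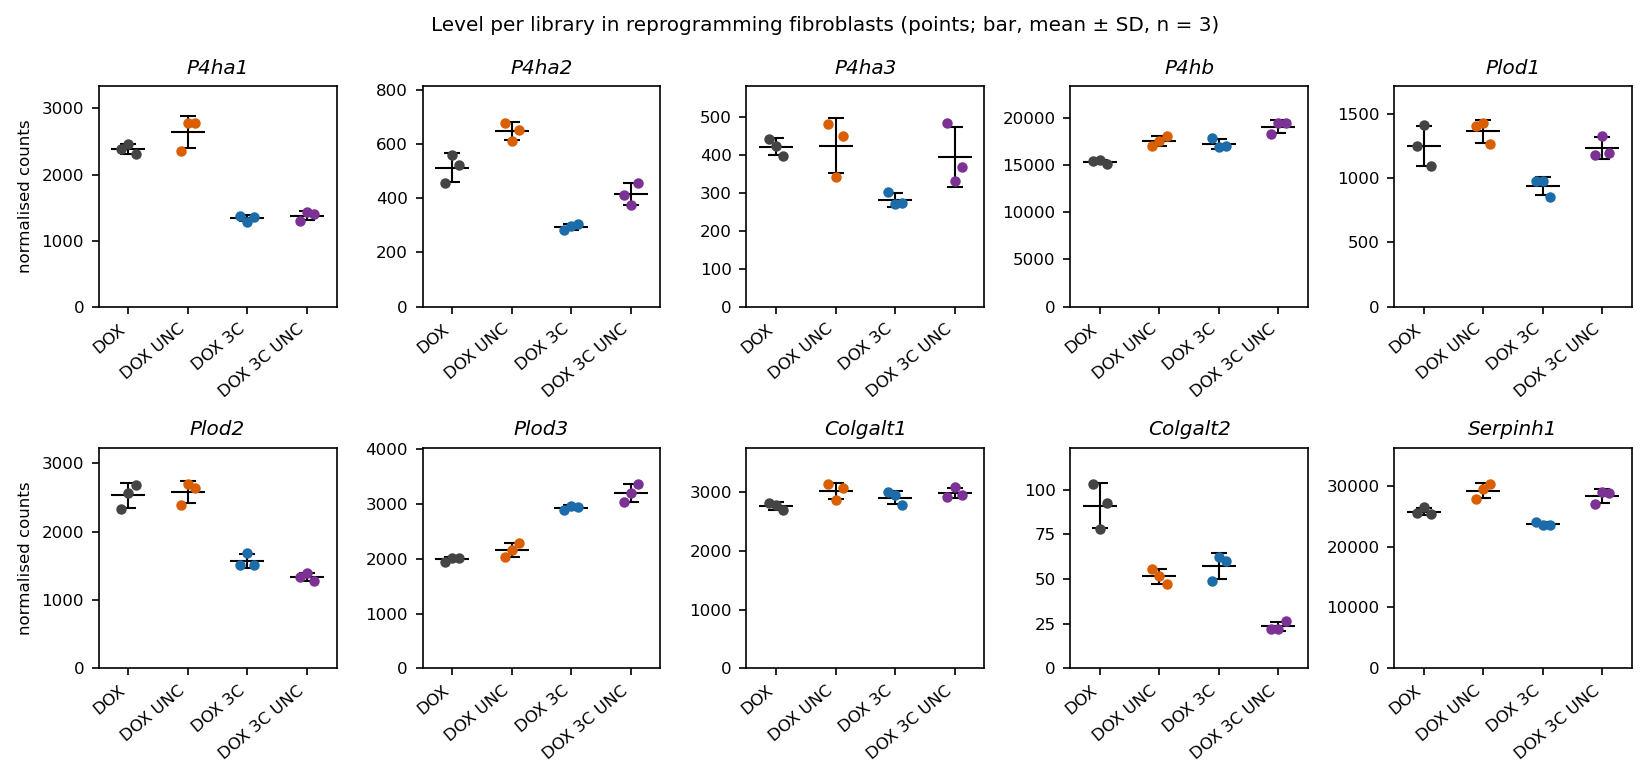
Normalised counts (y axis, from 0) of each gene in the 12 reprogramming libraries: each point is 1 library, and the bar is the group mean ± SD of 3 libraries. P4ha1 and Plod2 split by 3C, Plod3 is highest in the 2 groups with 3C, Colgalt2 is lowest in DOX 3C UNC, and Colgalt1 is nearly level with group means of 2768 to 3031.

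The 3 lysyl hydroxylase genes did not move together. Plod2 makes the hydroxylysine of the telopeptides, from which stable cross-links form. Its normalised counts were 2330, 2572 and 2688 in DOX, 2389, 2693 and 2643 in DOX UNC, 1511, 1684 and 1510 in DOX 3C, and 1330, 1396 and 1280 in DOX 3C UNC. All 6 libraries with 3C were below all 6 without it, and with 3C the UNC libraries were lowest. It fell with 3C by 0.69 without UNC (SE 0.07, adjusted p = 1.16e-07) and by 0.95 with UNC (SE 0.07, adjusted p = 2.04e-09). UNC lowered it in 3C (-0.23 ± 0.07, adjusted p = 0.0302), a call lost without DOX 3C replicate 2 (0.158), DOX 3C UNC replicate 1 (0.0687) or DOX 3C UNC replicate 3 (0.122) and without the filter on low values (0.0539). UNC without 3C gave 0.03 (adjusted p = 0.951), and the interaction of -0.26 ± 0.09 did not pass (unadjusted p = 0.0136, adjusted p = 0.284).

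Plod3, whose protein also carries glycosyltransferase activity, went the other way. It had 1945, 2016 and 2018 normalised counts in DOX, 2038, 2162 and 2293 in DOX UNC, 2898, 2973 and 2942 in DOX 3C, and 3033, 3210 and 3363 in DOX 3C UNC. All libraries with 3C were above all without it. It rose with 3C without UNC (0.56 ± 0.05, adjusted p = 1.17e-07, a mean 47.4% higher) and with UNC (0.57 ± 0.05, adjusted p = 1.11e-07). The UNC log2 fold changes of 0.12 in each medium did not pass (adjusted p = 0.508 without 3C and 0.156 with it). The UNC groups nevertheless lay above their controls without overlap in both media, with unadjusted p of 0.043 and 0.0351 in limma. The block in edgeR, chosen after seeing the data, called Plod3 for UNC in 3C (adjusted p = 0.0478).

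Plod1, which hydroxylates lysines of the helix, had 1247, 1410 and 1097 normalised counts in DOX and 1403, 1431 and 1264 in DOX UNC, which overlapped. DOX 3C was lower at 978.7, 975.3 and 854.7, and DOX 3C UNC at 1177, 1330 and 1196 overlapped both groups without 3C. It fell with 3C alone (-0.41 ± 0.08, adjusted p = 0.000527) and rose with UNC in 3C (0.40 ± 0.08, adjusted p = 0.00493). With 3C in the presence of UNC its log2 fold change was -0.15 ± 0.08 (adjusted p = 0.167, and 0.0385 with the replicate block). UNC without 3C gave 0.13 (adjusted p = 0.689), and the interaction was 0.27 ± 0.12 (unadjusted p = 0.039, adjusted p = 0.419).

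Colgalt2 had the widest span among the 10 genes, 3.88-fold between the highest and the lowest group mean, at low counts. Its normalised counts were 103, 78.1 and 92.3 in DOX, 55.5, 51.5 and 47.3 in DOX UNC, 48.6, 62.2 and 60.2 in DOX 3C, and 22.1, 21.8 and 26.5 in DOX 3C UNC. The 3 DOX libraries were highest and the 3 DOX 3C UNC libraries lowest, and the groups with a single treatment overlapped each other. It fell with 3C without UNC (-0.67 ± 0.18, adjusted p = 0.00471) and with UNC (-1.10 ± 0.18, adjusted p = 5.63e-05), and with UNC in 3C (-1.24 ± 0.18, adjusted p = 0.000205). The fall with UNC without 3C (-0.81 ± 0.18, adjusted p = 0.0475) was close to the threshold. It was lost without DOX replicate 1 (adjusted p = 0.194), 2 (0.0522) or 3 (0.151), DOX UNC replicate 1 (0.059), 2 (0.139) or 3 (0.241), DOX 3C replicate 2 (0.0584) or 3 (0.0638), or DOX 3C UNC replicate 3 (0.0523). TMM scaling (0.0505) and leaving out the filter on low values (0.0977) also ended it. The difference between the UNC effects was -0.44 ± 0.25 (adjusted p = 0.552).

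Colgalt1, the broadly expressed galactosyltransferase gene, varied least. It had 2821, 2784 and 2700 normalised counts in DOX, 3138, 2877 and 3078 in DOX UNC, 3004, 2952 and 2780 in DOX 3C, and 2925, 3088 and 2950 in DOX 3C UNC. Only the DOX and DOX UNC libraries, among the 4 pairs of groups compared, did not overlap. Its log2 fold changes ran from -0.02 to 0.13, and none passed the test (adjusted p = 0.255 and 0.776 for 3C without and with UNC, and 0.393 and 0.696 for UNC without and with 3C).

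Serpinh1, the gene of the collagen chaperone HSP47, was higher in the libraries with UNC. It had 25494, 26496 and 25358 normalised counts in DOX, 27903, 29468 and 30301 in DOX UNC, 24045, 23519 and 23595 in DOX 3C, and 27025, 29022 and 28938 in DOX 3C UNC. The DOX 3C libraries were lowest, and those of the 2 UNC groups overlapped each other above all libraries without UNC. UNC raised it in 3C (0.26 ± 0.05, adjusted p = 0.00387, a mean 19.4% higher), and its UNC log2 fold change without 3C was 0.18 ± 0.05 (adjusted p = 0.158, 0.0458 with the replicate block and 0.00604 with DESeq2). With 3C its log2 fold change was -0.12 ± 0.05 without UNC (adjusted p = 0.0659, and 0.0384 with the replicate block) and -0.04 with UNC (adjusted p = 0.513). Without UNC, edgeR (0.0188) and DESeq2 (0.00902) on the recovered reads called it.

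Ratios between related genes within a library do not depend on the scaling between libraries, and reads were not corrected for transcript length. Plod2 took 43.8% ± 2.22 (SD, n = 3) of the reads of the 3 Plod genes in DOX, 42.1% ± 1.02 in DOX UNC, 28.8% ± 0.971 in DOX 3C and 23.2% ± 1.10 in DOX 3C UNC. The mean difference with 3C, over both levels of UNC, was -17.0 percentage points (exact permutation test within levels of UNC, 2-sided, p = 0.005, adjusted p = 0.01 over 6 tests). With UNC, over both levels of 3C, it was -3.65 points (exact permutation p = 0.02, adjusted p = 0.024). A p of 0.005 is the smallest that the 400 arrangements can give. These arrangements do not keep same-numbered libraries paired, although such libraries deviated together. A paired version of the 6 share tests was not run, and it would have fewer arrangements and a larger smallest p. Plod2 was at most 46.3% of these reads without 3C and at most 29.9% with it.

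The share of P4ha2 among P4ha1 and P4ha2 reads was 17.6% ± 1.41 in DOX, 19.8% ± 2.25 in DOX UNC, 18.0% ± 0.872 in DOX 3C and 23.1% ± 1.98 in DOX 3C UNC. It differed by 3.65 points with UNC (exact permutation p = 0.015, adjusted p = 0.0225) and by 1.86 points with 3C (exact permutation p = 0.115, adjusted p = 0.115). The 3C difference in this share did not pass the test, and it was 1.43 to 2.50 points when any 1 library was left out. Colgalt2 held 3.18% ± 0.410 of the reads of both galactosyltransferase genes in DOX, 1.67% ± 0.136 in DOX UNC, 1.93% ± 0.289 in DOX 3C and 0.781% ± 0.0981 in DOX 3C UNC. Its share differed by -1.07 points with 3C and by -1.33 points with UNC (exact permutation p = 0.005 and adjusted p = 0.01 for each).

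**Figure D3:**
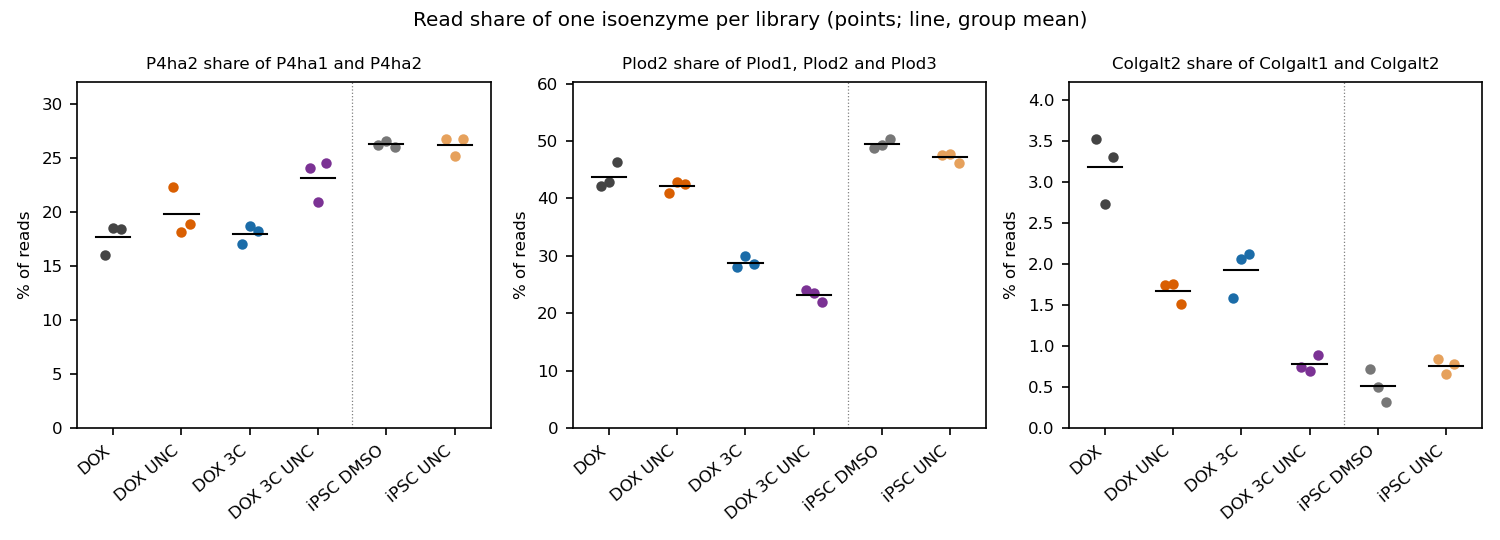
Share of reads (y axis, percent, from 0) taken by 1 isoenzyme gene among the genes named in the panel title, in each library. P4ha3 is not part of the P4ha2 share. Points are libraries and lines are means of 3, with the iPSC groups, from a separately counted table, right of the dotted line. The Plod2 share is 42.2% to 46.3% in DOX and 21.9% to 24.0% in DOX 3C UNC, and the Colgalt2 share is lowest among the reprogramming groups in DOX 3C UNC.

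The partners of these enzymes in the same compartment were read from lists of known function, with no test of any list. The counts stand against the shares of all genes called: with 3C alone 24.7% in each direction, and with 3C in UNC 23.5% falling and 23.9% rising. For UNC in 3C the shares were 7.71% rising and 3.94% falling, and for UNC without 3C 0.508% rising and 0.0991% falling. The list of the prolyl 3-hydroxylase complex and collagen foldases includes enzymes that modify a few prolines and others that turn peptide bonds, but not all its members do either. In it 8 of 11 genes fell and 1 rose with 3C alone, and 7 fell and 1 rose with 3C in UNC. Its median log2 fold changes were -0.30 and -0.32, against 0.02 and 0.01 for all genes. P3h4 went from 2418 ± 91.1 normalised counts in DOX to 1468 ± 51.4 in DOX 3C (-0.72 ± 0.06), the cartilage-associated protein gene Crtap from 2079 ± 29.5 to 1272 ± 105 (-0.71 ± 0.06) and the prolyl isomerase gene Fkbp10 from 5773 ± 239 to 3963 ± 72.2 (-0.54 ± 0.06). UNC raised 2 of the 11 in 3C, P3h3 (0.37) and Fkbp14 (0.36), and 0 without 3C with limma, where 3 had an unadjusted p below 0.05.

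General folding genes of the endoplasmic reticulum were counted next. With 3C, 7 of 13 fell and 2 rose without UNC, against 24.7% of all genes in each direction, and 9 fell and 2 rose with UNC, against 23.5% falling and 23.9% rising. The medians were -0.28 and -0.25. The disulfide isomerase gene Pdia6 (-0.72 ± 0.05 without UNC), the chaperone gene Hsp90b1 (-0.62 ± 0.06) and the disulfide isomerase gene Pdia4 (-0.35 ± 0.05) fell, whereas P4hb, of the same enzyme family, rose. With UNC, 4 of the 13 rose in 3C, among them Pdia6 (0.32), the chaperone gene Calr (0.29) and the secreted stress protein gene Manf (0.21), and 1 rose without 3C, Manf (0.25). In the cytosolic and mitochondrial heat shock list 8 of 10 genes rose and 1 fell with 3C, in each setting, with medians of 0.55 and 0.45. They included Hspd1 (0.76 ± 0.06), Hsph1 (0.55) and Hsp90aa1 (0.49) without UNC, while Serpinh1, also a heat shock gene, had -0.12.

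Of 13 genes of procollagen export, 3 fell and 1 rose with 3C alone and 1 fell and 1 rose with 3C in UNC, at or below the shares of all genes given above. The coat protein gene Sec23b rose (0.26 and 0.38), and Creb3l1, a transcription factor of secretory genes, fell (-0.83 ± 0.18) with 3C alone and rose with UNC in 3C (0.80), together with Sec24d (0.51). Propeptide processing, the step that follows secretion, split: of 7 tested genes 3 rose and 3 fell with 3C alone and 2 rose and 4 fell with 3C in UNC. The C-proteinase gene Bmp1 (-0.55 ± 0.06) and the N-proteinase gene Adamts2 (-0.96 ± 0.11) fell with 3C alone and the enhancer gene Pcolce rose (0.34 ± 0.06). UNC in 3C raised 4 of the 7 and lowered 0, against 7.71% of all genes rising and 3.94% falling. The 4 included Bmp1 (0.62), Adamts2 (0.97) and Pcolce (0.39). UNC without 3C raised Tll1 (0.84) and Bmp1 (0.27), against 0.508% of all genes rising.

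Other enzymes of the family that needs 2-oxoglutarate and iron were counted in the same way. The shares of all genes were 24.7% in each direction with 3C alone, and 23.9% rising and 23.5% falling with 3C in UNC. Of 18 tested genes for other 2-oxoglutarate hydroxylases, 8 rose and 3 fell with 3C alone and 5 rose and 4 fell with 3C in UNC, with medians of 0.15 and 0.10. Ogfod3 (1.00 ± 0.18), the lysine hydroxylase gene Jmjd6 (0.36) and Ogfod2 (0.61) rose with 3C alone, and Egln1, a prolyl hydroxylase of the oxygen-sensing pathway, fell in the presence of UNC (-0.46). Among 7 tested genes of ascorbate uptake and recycling 1 rose and 2 fell with 3C alone: the glutathione transferase gene Gsto1 rose (0.76) and the sugar and dehydroascorbate carriers Slc2a3 (-1.62 ± 0.12) and Slc2a1 (-0.31) fell. With 3C in UNC, 2 rose and 2 fell, and UNC called 0 of the 7 in each medium with limma, with 0 and 1 at an unadjusted p below 0.05. The 3C counts of the ascorbate genes, and those of the other hydroxylases with 3C in UNC, lay near the shares of all genes. Hypoxia response genes, a set that in other settings includes P4ha1, P4ha2 and Plod2, held 5 of 13 falling and 1 rising with 3C alone, with Mxi1 (-0.81 ± 0.08), the histone demethylase gene Kdm3a (-0.42) and Pfkfb3 (-0.59) among those that fell. With 3C in UNC, 7 fell and 2 rose.

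The fibrillar collagen chains, which are the substrates, had larger median changes than the 10 genes. With 3C alone 8 of 11 chains fell and 1 rose, with a median of -1.27, against 24.7% of all genes in each direction. With 3C in UNC 7 fell and 2 rose (median -1.15), against 23.5% of all genes falling and 23.9% rising. Col1a2 went from 82491 ± 5978 normalised counts in DOX to 23912 ± 2060 in DOX 3C (-1.79 ± 0.07) and Col5a1 from 12833 ± 945 to 3646 ± 217 (-1.81 ± 0.06). UNC in 3C raised 7 and lowered 0 (median 0.72), against 7.71% of all genes rising and 3.94% falling, including Col1a1 from 9967 ± 1380 to 18848 ± 914 (0.93). UNC without 3C raised Col5a2 (0.41) and Col5a1 (0.42).

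Set against their substrates, the 10 genes together gave 34.3 to 36.7 reads per 100 reads of the 11 fibrillar chains in DOX, 31.1 to 32.1 in DOX UNC, 88.7 to 101 in DOX 3C and 62.2 to 68.7 in DOX 3C UNC. The 4 groups did not overlap, and the highest ratio was in DOX 3C. Serpinh1 and P4hb gave most of these reads, with means of 17.2 and 10.2 out of 35.4 in DOX and of 44.2 and 32.1 out of 95.6 in DOX 3C. The pooled ratio therefore mainly describes these genes. The chains themselves made up 0.967% ± 0.0495 of all reads in DOX, 1.2% ± 0.0328 in DOX UNC, 0.359% ± 0.0279 in DOX 3C and 0.587% ± 0.0262 in DOX 3C UNC. Ratios of single genes moved unequally between DOX and DOX 3C: Serpinh1 from 17.2 ± 0.534 to 44.2 ± 3.08 reads per 100 chain reads, Plod3 from 1.33 ± 0.0482 to 5.49 ± 0.512, and P4ha1 from 1.60 ± 0.0622 to 2.50 ± 0.146. These ratios describe reads, not protein or enzyme activity, and carry no test.

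**Figure D4:**
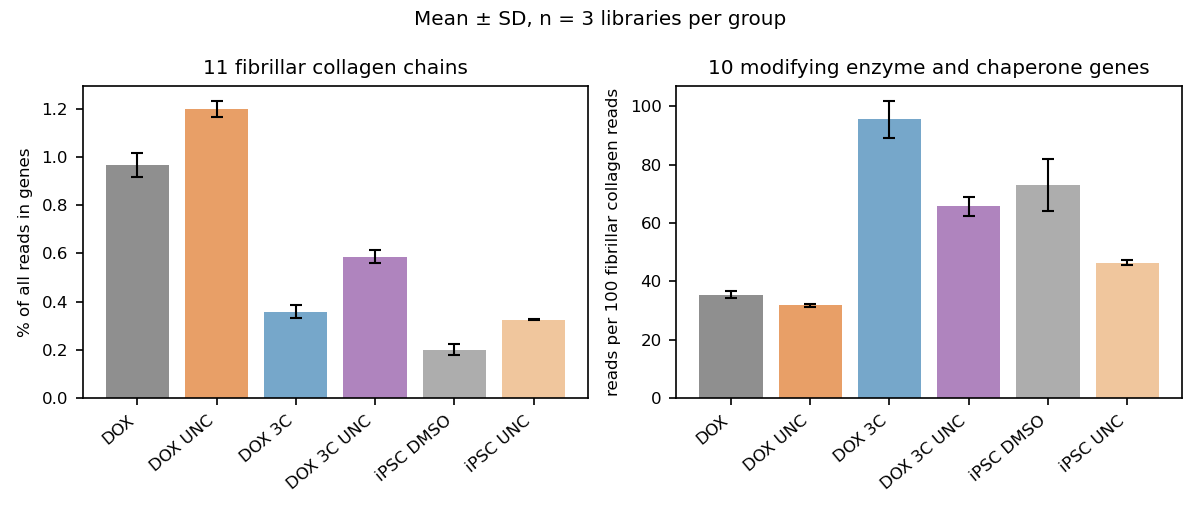
Left, reads of the 11 fibrillar collagen chains as a percentage of all reads in genes; right, reads of the 10 modifying enzyme and chaperone genes per 100 of those collagen reads; bars are means of 3 libraries and error bars the SD. The chain reads are lowest among the reprogramming groups in DOX 3C, at 0.359%, where the ratio on the right is highest.

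In iPSC, UNC given during the first 48 hours went with a higher level of 1 of the 10 genes, P4ha3. It had 242, 281 and 208 reads in the DMSO libraries and 389, 401 and 380 in the UNC libraries, or 10.2, 11.1 and 8.67 CPM against 15.8, 16.3 and 17.6 CPM. The groups did not overlap, and the rise was 0.74 ± 0.11 on the log2 scale (edgeR, adjusted p = 0.00642, a mean 66.2% higher), against 1.27% of 17987 genes tested rising and 0.0389% falling. Serpinh1 had 219, 222 and 206 CPM against 266, 272 and 240 CPM, without overlap, and its log2 fold change of 0.27 ± 0.06 did not pass (adjusted p = 0.0828). DESeq2 called it (0.0116), as did edgeR without the filter on low counts (0.00242) and without iPSC UNC replicate 3 (0.0226).

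The other 8 genes were not called in iPSC with edgeR, 1 of them, P4hb (592 ± 11.9 against 635 ± 6.37 CPM), with an unadjusted p below 0.05. P4ha1 gave -0.11 and P4ha2 -0.12, Plod1, Plod2 and Plod3 gave 0.02, -0.09 and 0.06, and Colgalt1 gave -0.11. Colgalt2, which fell with UNC in reprogramming cells, had 24, 19 and 13 reads in DMSO and 30, 23 and 24 in UNC. Its log2 fold change was 0.51 ± 0.30 (adjusted p = 0.527). In the same libraries 6 of 11 fibrillar chains rose, with Col1a1 (0.70), Col5a1 (0.65) and Col3a1 (0.60) among them. The 10 genes gave 64.8 to 82.4 reads per 100 chain reads in DMSO and 45.5 to 47.5 in UNC. Fibroblast markers moved with UNC here too, 6 of 8 rising against 1.27% of all genes, from a summed 1400 to 1757 CPM in DMSO to 2503 to 2538 CPM in UNC. This sum also mainly follows Col1a1, Col1a2 and Col3a1, which had means of 724.7, 577.0 and 110.3 CPM in DMSO. Other markers also separated these groups without overlap: the 6 pluripotency markers summed to 3865 to 3944 CPM in DMSO and 3438 to 3741 in UNC, the 6 epithelial markers to 910 to 1067 and 848 to 870, and the 5 endothelial markers to 121 to 132 and 115 to 119. With edgeR 0 genes of these 3 lists were called, with 1, 4 and 0 at an unadjusted p below 0.05, and the part of all these markers in the P4ha3 difference was not tested.

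**Figure D5:**
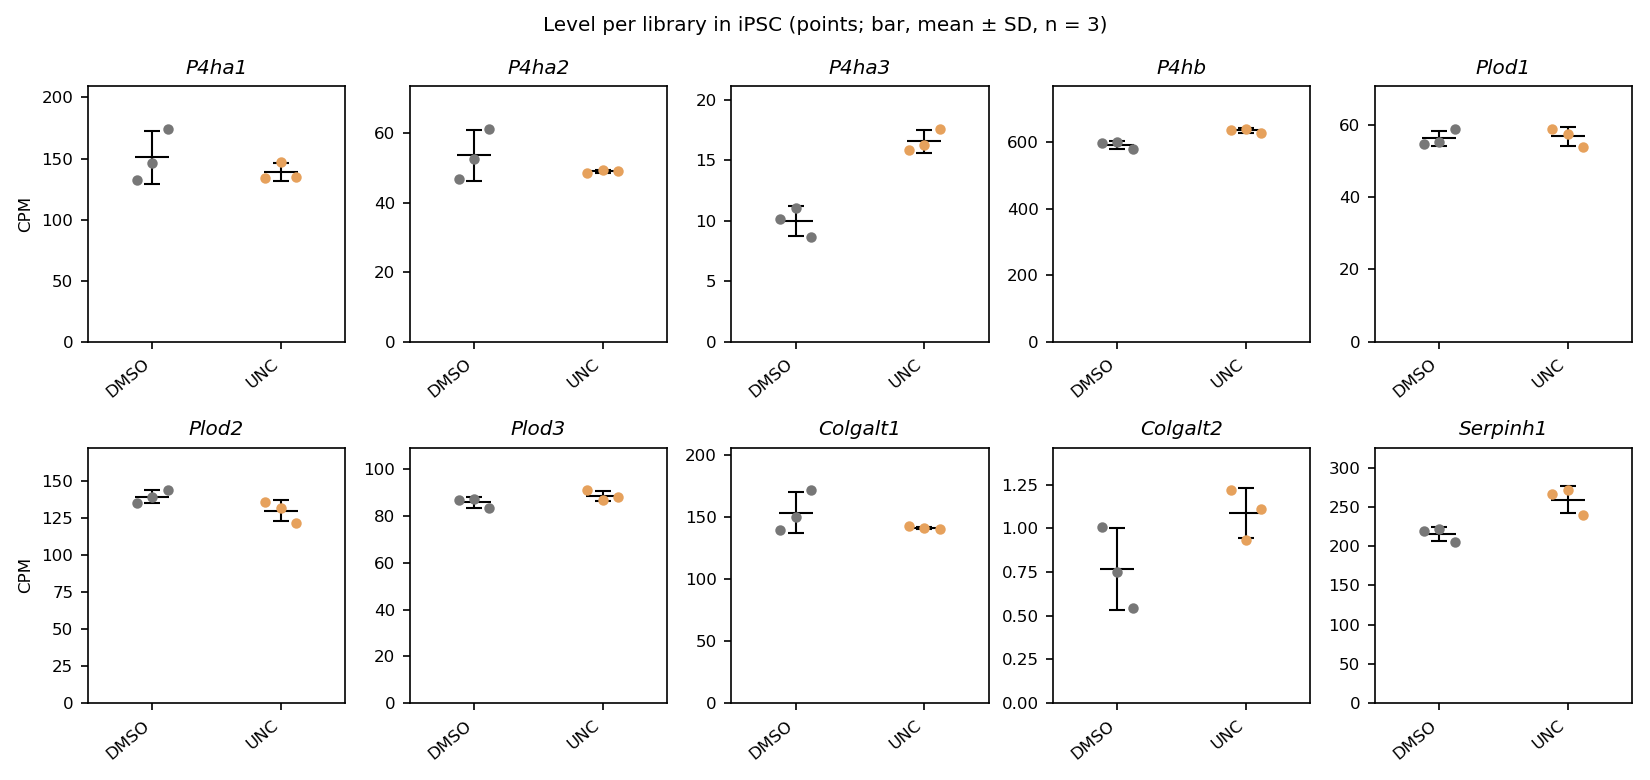
CPM (y axis, from 0) of each gene in the 3 DMSO and 3 UNC libraries of iPSC; points are libraries and bars the mean ± SD. P4ha3 lies at 8.67 to 11.1 CPM in DMSO and 15.8 to 17.6 CPM in UNC, and Serpinh1 separates the groups by a smaller proportion.

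The 2 tables were counted separately, so levels in iPSC and in reprogramming cells are set side by side with no test. Serpinh1 had group means of 1580 to 1867 CPM in reprogramming cells and of 216 and 259 CPM in iPSC, and P4hb 988 to 1255 CPM against 592 and 635. Plod3 had 128 to 211 CPM against 85.8 and 88.6, P4ha3 18.8 to 27.2 against 9.96 and 16.6, and Colgalt2 1.55 to 5.87 against 0.766 and 1.09. P4ha2 was on the other side, with 19.6 to 41.2 CPM in reprogramming cells and 53.7 and 49.2 in iPSC. P4ha1 (89.5 to 168 CPM in reprogramming cells, 151 and 139 in iPSC) and Plod2 (88.1 to 164, and 139 and 130) lay in iPSC within their range in reprogramming cells. Plod1 had 62.4 to 87.1 CPM against 56.3 and 56.8, and Colgalt1 178 to 197 against 154 and 142. P4ha2 took 26.2% of P4ha1 and P4ha2 reads in both iPSC groups, and Plod2 49.5% ± 0.756 and 47.1% ± 0.824 of Plod reads, each above its share in every reprogramming group.

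The genes whose pattern over the 12 reprogramming libraries was most like that of each enzyme or chaperone gene named here were found by the root mean square difference of log2 levels centred on each gene's mean, among 10798 other genes with a mean of at least 100. P4ha1 and Plod2 were each other's closest among the 10, at 0.138, and P4hb and Colgalt1 were each other's at 0.085. Outside the 10, the integrin gene Itgb1 was closest to P4ha1 (0.068), Lpin2 to Plod2 (0.069) and the translocon subunit gene Sec61b to P4hb (0.049). Myl6 (0.105) and the collagen-binding matrix protein gene Sparc (0.111) were closest to P4ha2, Reck to P4ha3 (0.097) and Vangl2 to Plod1 (0.08). Serpinb6a (0.044) was closest to Serpinh1 and Cflar (0.046) to Colgalt1. Colgalt2 had group means of 23.49 to 91.1, below the cut of 100, so outside genes at its own level were not compared. Among the genes compared, its closest outside gene was Etv4 at 0.303 and its closest among the 10 was Plod2 at 0.495. This measure takes small values for genes that vary little and is given as a description.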

How the data were processed

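RNA was measured in 12 reprogramming and 6 iPSC libraries; 10 samples that profiled H3K9me2, of 28 in all, were not analysed here. Libraries were made with the TruSeq stranded total RNA kit with RiboZero Gold, per the labels' protocols. TopHat2 2.1.0, SAMtools 1.8, HTSeq 0.5.4p3 and DESeq were used with mm10, per the submitters' processing notes. The reprogramming table holds signal: the authors divided read counts by 1 factor per library, and whole reads were recovered for 100% of values within 0.01 read. The deposited iPSC table holds raw counts. The reprogramming table has 2 further columns of values that fit no sample listed here, and these were left out. Symbols were found for 54042 of 54109 and 54723 of 54838 identifiers.

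The log2 of the reprogramming value plus 1 was tested with limma 3.58.1 (empirical Bayes with trend, R 4.3.3), with all 12 libraries in 1 fit and genes of at least 10 in at least 3 libraries. For iPSC the counts entered the quasi-likelihood test of edgeR 4.0.16 after its default filter and TMM normalization. Benjamini-Hochberg adjustment ran over all genes of a comparison, with a threshold of 0.05, and fold changes of low genes are understated by the pseudocount. Values are given ± SE for log2 fold changes and ± SD for groups of 3. For iPSC the SE was worked back from the log2 fold change and the test statistic of edgeR, so it is not independent of the p-value. Read shares were tested by exact permutation. Scripts were tested on simulated data. Alternatives were pseudocounts of 0.5 and 5, no filter, TMM scaling, edgeR and DESeq2 1.42.0 on recovered reads, a replicate block, the compared groups alone and each library left out.

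Replicate numbers were checked for pairing: same-numbered libraries deviated together (correlation of deviations from group means of 0.106 to 0.205) in every pair for 3C without UNC, 3C with UNC and UNC with 3C. The correlations were 0.223, 0.211 and 0.094 for UNC without 3C, whose groups are linked by number through the other comparisons. Blocked values therefore stand beside reprogramming results where they change a call. The pairing rests on that correlation, since no label says what a number marks. All 10 genes are named in every comparison. From each list of other genes the counts are given with up to 3 called genes of smallest p. The 10 genes and the lists were chosen with earlier results of these data known.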

Additional observations from a re-analysis of the deposited data

How the results depend on the processing

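The number of the 10 genes called with UNC without 3C (1) was 0 with no filter, 3 with DESeq2, 4 with a replicate block, and 0 to 1 when each library was left out. In iPSC (1) it was 2 with no filter, with DESeq2 and with a replicate block, and 1 to 2 when each library was left out. The block in edgeR, chosen after seeing the data, gave 4 for UNC without 3C. Under the settings run, 3C without UNC called 8 to 9 (main 8), 3C with UNC 5 to 7 (main 5), UNC with 3C 4 to 8 (main 6) and the interaction 0. In iPSC the block added Serpinh1 (adjusted p = 0.0164). There the numbers are not shown to pair the libraries, at correlations of 0.049, 0.057 and 0.109, and number 1 did not correlate best with itself, whereas all reprogramming libraries correlated best with their own number. Beside the calls given in the report, the block changed no call of these 10 genes in limma.

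Over all genes, calls for UNC without 3C (98) were 170 with DESeq2, 409 with a replicate block, 425 with the block in edgeR and 19 to 144 when each library was left out (25 without DOX replicate 1, 48 without DOX replicate 3, 34 without DOX UNC replicate 2 and 19 without DOX UNC replicate 3). For UNC with 3C (1880) they were 2871 and 3130 with the blocks and 1039 to 1917 when each library was left out (1039 without DOX 3C replicate 2 and 1137 without DOX 3C UNC replicate 3). The interaction (10) gave 29 with a pseudocount of 5, 158 with DESeq2, 413 and 486 with the blocks and 0 to 70 when each library was left out, with 0 without DOX replicate 2 and 70 without DOX 3C replicate 1. iPSC (236) gave 823 with no filter, 365 with DESeq2, 407 with a replicate block and 85 to 216 when each library was left out (156 without iPSC DMSO replicate 1, and 85 and 111 without iPSC UNC replicates 1 and 2). Rising genes were 97.0% of iPSC calls, 84.7% with DESeq2, 58.2% with no filter and 76.4% with the block, and 70.0% of interaction calls, 80.4% with DESeq2. No value reversed its direction while called. Of the values of single genes, 1080 kept their side of the threshold, 32 gained a call and 18 lost it, and the 72 values of read shares kept theirs. Shares per length of transcript were not run, since no transcript lengths were used here. Depth was low for Colgalt2 in iPSC, with 13 to 30 reads per library.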
